A study of Mus musculus with 4 samples.

Results

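Scavenger receptors and pattern recognition receptors are the molecules by which phagocytes bind microbes and altered lipoproteins. The group described here comprises 7 mouse genes: Cd14, Msr1, Marco, Tlr2, Tlr4, Myd88 and Scarb1. Its members were found as probe sets whose platform annotation gives exactly 1 gene symbol, equal to one of these names. They numbered 6 of the 13069 non-control probe sets in the series, for 5 of the 7 genes. Msr1 had 2 probe sets, and Cd14, Marco, Myd88 and Scarb1 had 1 each. Tlr2 and Tlr4 matched 0 probe sets and have no value here.

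The arrays measured total RNA of peritoneal exudate cells from Cebpe-deficient mice, C/EBPε -/-, and from wild-type mice, C/EBPε +/+. C/EBPε is a transcription factor of late granulocyte maturation. Both genotypes were on a mixed 129/SvEv x NIH Black Swiss background, with 4 mice of each, aged 6 to 8 weeks. All had received 2 ml of 4% thioglycollate broth into the peritoneum, a sterile irritant, and cells were washed out after 24 h. There was no array of unstimulated cells, so both groups carry the effect of the broth. By the submitters' cell counts both genotypes gave about 30% monocytes, 60% neutrophils and 7 to 10% lymphocytes. The stated purpose was to find genes that C/EBPε may control in both phagocyte types.

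Each genotype was hybridised once to each of 2 Affymetrix array types, here called A and B, which carry different probe sets. There were 4 arrays in all, 1 per genotype and type, so no difference below has a replicate check and no test was possible. The deficiency is named in the title of the type B array but missing from its RNA source text. Cebpe itself matched 0 probe sets, so the labels could not be checked on the deleted gene. Signal was read against a floor, the median of the scaled values of a type, at 1036.5 on A and 690.1 on B. The 3′ over 5′ signal ratio of the Gapdh control probe sets, a sign of RNA integrity, was 0.758 and 0.824 on the deficient arrays and 0.801 and 0.841 on the wild-type arrays (A and B in turn). That of the actin control probe sets was 0.881 and 0.879 on the deficient arrays and 0.893 and 0.823 on the wild-type arrays.

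As background, CD14 is a surface protein that captures bacterial lipopolysaccharide and passes it to the Toll-like receptor 4 complex. TLR2 recognises bacterial lipoproteins, and MyD88 is the adaptor through which most Toll-like receptors and the interleukin 1 receptor signal to NF-κB. MSR1 and MARCO are class A scavenger receptors of macrophages that bind modified lipoproteins and bacteria. SCARB1, or SR-BI, is the class B scavenger receptor that takes cholesteryl esters from high-density lipoprotein.

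The promoter windows of Marco and Myd88 are shown because these members have both an array value and a window in the RefSeq table on GRCm38.p6, in which 3 of the 7 members were found. Each runs from 250 bases before the annotated start to 50 bases after it, 5′ to 3′ on the minus strand. Capitals mark matches, on either strand, to any of 4 patterns: a C/EBP core (TTNNGCAA), an ETS core (GAGGAA), a loose NF-κB pattern (GGG, then 5 bases of any kind, then CC) and an AP-1 motif (TGANTCA).
Marco, chr1:120504975-120505274: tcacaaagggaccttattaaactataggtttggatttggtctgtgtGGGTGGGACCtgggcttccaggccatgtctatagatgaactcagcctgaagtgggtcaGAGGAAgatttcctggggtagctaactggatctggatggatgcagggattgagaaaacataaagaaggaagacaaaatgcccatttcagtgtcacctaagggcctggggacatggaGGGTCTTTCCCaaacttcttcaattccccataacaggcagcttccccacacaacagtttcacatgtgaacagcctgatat
Myd88, chr9:119339969-119340268: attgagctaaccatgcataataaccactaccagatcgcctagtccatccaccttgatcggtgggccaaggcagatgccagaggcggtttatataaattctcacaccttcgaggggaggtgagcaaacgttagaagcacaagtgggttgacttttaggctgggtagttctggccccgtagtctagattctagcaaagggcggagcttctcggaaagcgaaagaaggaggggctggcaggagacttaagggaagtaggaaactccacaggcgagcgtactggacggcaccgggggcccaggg

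The Marco window held 1 match to the ETS core and 3 to the NF-κB pattern, of which 2 overlap on opposite strands. The Myd88 window held 0 matches to each of the 4. Among 32851 promoter windows of this length, 10.8% held the C/EBP core, 28.3% the ETS core, 50.8% the NF-κB pattern and 7.81% the AP-1 motif. Neither printed window held the C/EBP core, which says only that these letters are not in the 300 bases searched.

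Signal of Cd14 and of the scavenger receptor gene Msr1 was lower in Cebpe-deficient cells than in wild-type cells, and that of Marco was lower by less than 2-fold. Signal of Myd88, the signalling adaptor, differed by 1.05-fold. Scarb1 was above the floor in the deficient cells only. Of the 6 probe sets, 5 had a ratio and 1 a bound. The 5 ratios were all below 0, a side that holds 48.1% of the 5902 probe sets with a ratio on both types. Of the 5, 2 were lower by 2-fold or more, 1 for Cd14 and 1 for Msr1, against 3.44% of those 5902. None (0 of 5) was higher by 2-fold, against 3.39%. The 5 ratios had a median of -0.87 on the log2 scale, and the medians of all ratios were 0.02 on A and 0.02 on B. The 5 came from 4 genes, with Msr1 counted by both of its probe sets. Read by its brighter probe set, at -0.87, Msr1 did not reach 2-fold, which left Cd14 alone. Of all 3131 genes with a ratio, 3.67% were lower by 2-fold or more. Exudate RNA is bulk RNA, so fewer cells of a type and less RNA per cell cannot be told apart.

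**Figure D1:**
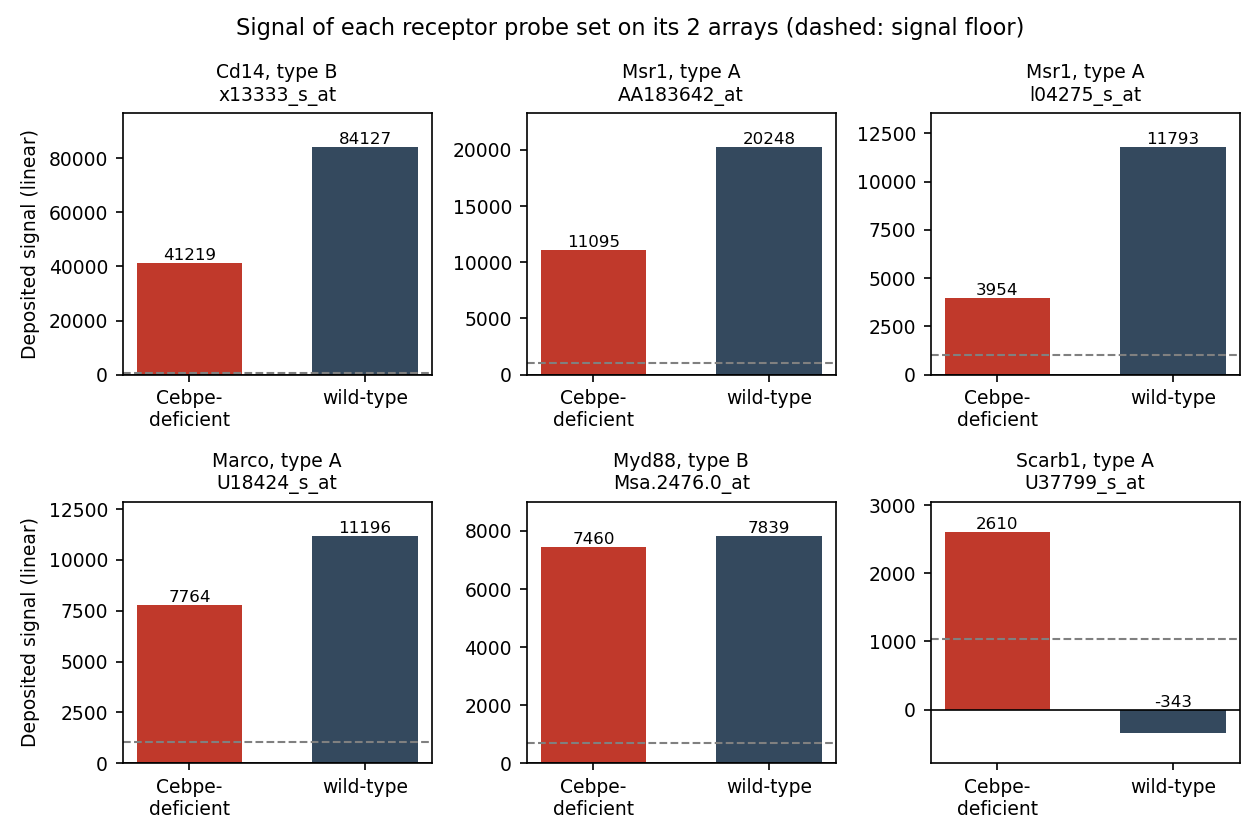
Deposited signal (linear scale, vertical axes of different length) of each receptor probe set on its deficient array (left bar) and wild-type array (right bar), with 1 array per bar and no error bars, and the signal floor of the array type dashed. The bars of Cd14 and of both Msr1 probe sets are lower in the deficient cells, those of Myd88 are nearly level at 7460 and 7839, and the wild-type reading of Scarb1 is below 0.

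Cd14 was read by x13333_s_at on type B. Its signal was 41219 in deficient cells and 84127 in wild-type cells. Both values were far above the floor, at 59.7 and 121.9 times it, and the deficient value was 49.0% of the wild-type one. The fold was 2.04 lower, a log2 ratio of -1.03, the 100th lowest of 2953 ratios on that type, of which 3.73% were lower by 2-fold or more. The highest values of type B were 94002 on the deficient array and 88147 on the wild-type array, so the wild-type reading of Cd14 lay close to the top of its scale. With quantile normalization, loess or scaling to the bacterial controls the log2 ratio was -0.82, -0.84 or -0.68, which is under 2-fold. Relative to the median of all type B ratios under bacterial-control scaling, 0.36, Cd14 stood at -1.04, against -1.05 with the main scaling. That scaling shifts all ratios of a type equally, so taking the median off undoes it and is no check of the 2-fold line. Relative to the median, Cd14 stood at -0.82 with quantile normalization and at -0.84 with loess, both under 2-fold.

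Msr1 was read by AA183642_at and l04275_s_at, both on type A. The first gave 11095 in deficient cells and 20248 in wild-type cells. The second gave 3954 in deficient cells and 11793 in wild-type cells. Both probe sets were therefore lower in the deficient cells, the first by 1.83-fold (log2 ratio -0.87) and the second by 2.98-fold (log2 ratio -1.58). Only the second passed 2-fold, where 3.15% of the 2949 ratios of type A lay. It was the 20th lowest of them and the first the 136th.

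The Msr1 probe sets differed from each other by 0.71 log2 units. Among 296 genes with repeat probe sets measured on 1 array type, the median spread between a gene's sets was 0.29, and 51 genes (17.2%) spread at least as far as Msr1. In 6 of the 296, Msr1 included, every repeat set lay at or below -0.87. That cut-off is the higher Msr1 value itself, so the count only describes where Msr1 stands. Over all repeat sets of a gene the pooled SD of the log2 ratio was 0.38 (424 genes), and it was 0.28 where both arrays read at least 3 times the floor (215 genes), as all 5 ratios of the receptors do. Both Msr1 differences and that of Cd14 are larger than this error. This SD is taken over the probe sets of a gene on either array type, so part of it lies between array types. It holds none of the spread between mice or between repeat arrays of 1 type.

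Marco was read by U18424_s_at on type A. Its signal was 7764 in deficient cells and 11196 in wild-type cells. The deficient value was 69.3% of the wild-type one, 1.44-fold lower, a log2 ratio of -0.53, and it did not reach 2-fold. It was the 374th lowest of 2949 ratios, within the lowest 12.7% of the type. Marco thus exceeded the repeat probe set SD of 0.28 by less than Cd14 or Msr1 did. That SD holds no spread between mice or repeat arrays, so it is no cut-off for a difference. The SD of all type A ratios was 0.52, about the size of the Marco ratio.

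Myd88 was read by 1 probe set on type B, with 7460 in deficient cells and 7839 in wild-type cells. The log2 ratio was -0.07, within the error of 0.28, and it was the 1246th lowest of 2953. Under bacterial-control scaling it turned to 0.28. That scaling put the median of all ratios at 0.21 on A and 0.36 on B, and relative to this median Myd88 stood at -0.08.

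Scarb1 was read by U37799_s_at on type A, with 2610 in deficient cells and -343 in wild-type cells. A reading below 0 has no log, so the difference is only a bound, at least 2.52-fold higher in the deficient cells against the floor. Of 286 probe sets of type A above the floor in deficient cells only, 15.0% had a bound of 2-fold or more. The bound follows the floor chosen. With the floor at the 30th percentile it was 3.35 on the log2 scale and at the 70th percentile 0.03, against 1.33 with the median.

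**Figure D2:**
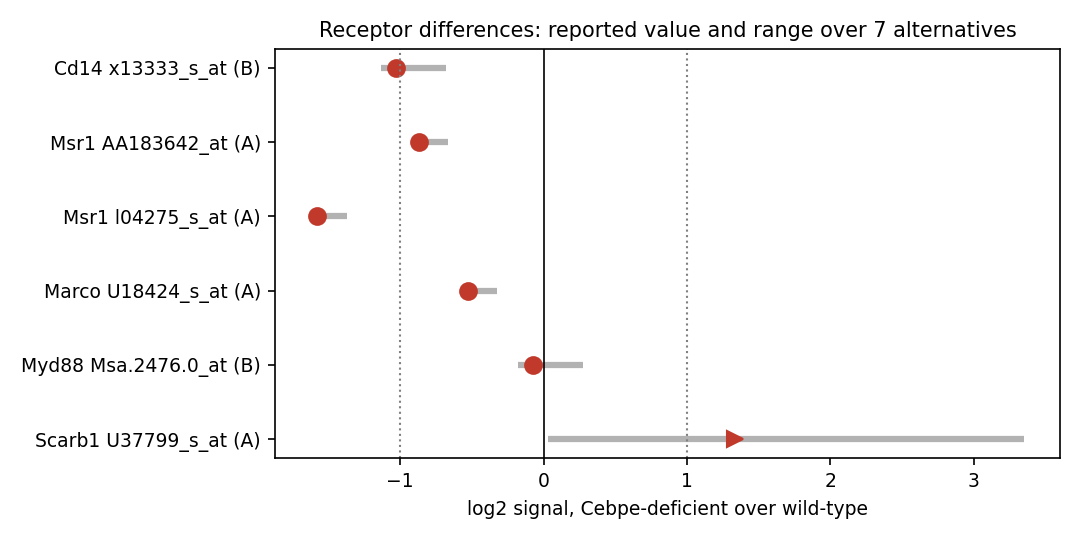
Log2 signal ratio, deficient over wild-type, of each receptor probe set (array type in brackets). Circles are ratios, the triangle is the lower bound of Scarb1, grey bars span the values under 7 other processing settings and dotted lines mark 2-fold. Cd14 crosses the 2-fold line within its range of -1.14 to -0.68, Msr1 by l04275_s_at stays beyond it at -1.62 to -1.37, and Myd88 spans 0.

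Of the 6 probe sets, 4 carry the suffix _s, which by the array maker's convention marks probes that can match more than one transcript. They are those of Cd14, Marco and Scarb1 and the second of Msr1. The probe sets without a suffix were Msr1 by AA183642_at, at -0.87, and Myd88, at -0.07. On type A the 3 ratios of Msr1 and Marco kept their sign under the 7 alternative settings. Only quantile normalization and loess could change their order, and it was kept under each. The other scalings shift all ratios of a type equally, and the floors left these ratios as they were. Under bacterial-control scaling, relative to the median of all ratios, the 3 ratios were -0.88, -1.59 and -0.54, which only undoes that shift.

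**Figure D3:**
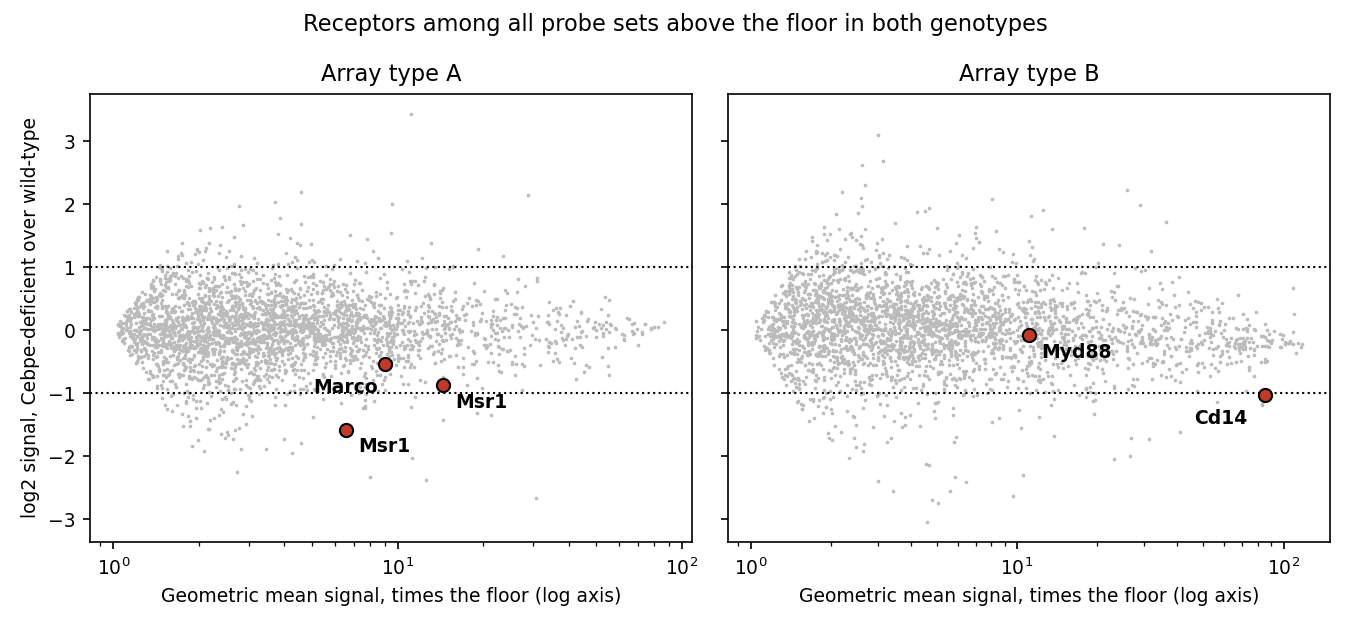
Log2 ratio, deficient over wild-type, against the geometric mean signal in multiples of the floor (log axis) for all probe sets above the floor on both arrays of a type, in grey, with the receptors in red and 2-fold dotted. Cd14, at -1.03, lies at the lower edge of the bright probe sets of type B, the 2 Msr1 points lie at -0.87 and -1.58, and Myd88 lies within the cloud.

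For each receptor with a ratio, the probe sets of other genes with the closest pair of signals over its 2 arrays were found, by Euclidean distance in log2 signal. The closest to Cd14 were Lgals1, Ctsl and Aldoa, all at a distance of 0.37 to 0.38 and with log2 ratios of -0.50 to -0.51, smaller in size than that of Cd14. Msr1 by AA183642_at was closest to Hspa5, an endoplasmic reticulum chaperone, at 0.05, followed by Ran and Dad1. By l04275_s_at it was closest to Cd164, at 0.37, then Tubb4b and Erdr1. Vdac1, Psma3 and Midn were closest to Marco, and Bcat2, Hp1bp3 and Ptpa to Myd88. A likeness over 2 arrays is a description of 2 numbers.

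Around the receptors, no other gene of the Toll-like receptor pathway lists had a ratio past 2-fold. Such ratios were rare on these arrays: of the 5902 probe sets, 3.39% passed 2-fold upward and 3.44% downward. The pathway lists held only 2, 6 and 10 ratios, so 0 past 2-fold, here and below, cannot be told from these shares. Of 18 other Toll-like receptors and co-receptors, 5 were on the arrays and 2 had a ratio. Unc93b1, which carries the endosomal Toll-like receptors to their compartment, had 42010 in deficient cells and 24366 in wild-type cells, a log2 ratio of 0.79. Ly86, the partner protein of the receptor CD180, had 5641 in deficient cells and 5198 in wild-type cells (0.12), and its second probe set 3991 in deficient cells and 2406 in wild-type cells (0.73). Cd180 and Lbp, the lipopolysaccharide-binding protein, were above the floor in deficient cells only, with bounds of 1.58-fold and 1.59-fold. A floor at the 30th percentile gave these 2 genes ratios past 2-fold. Tlr7 did not reach the floor in either genotype.

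Of 22 listed signalling genes between receptor and transcription factor, Myd88 set aside, 7 were on the arrays and 6 had a ratio. Of these 3 were above 0 and 3 below, 0 of them past 2-fold, with a median of 0.003 beside 0.01 for all 3131 genes with a ratio. Tollip, an inhibitor of the pathway, had 3459 in deficient cells and 3771 in wild-type cells (-0.13), and the kinase Btk 4422 in deficient cells and 4470 in wild-type cells (-0.02). Tirap, the adaptor that bridges MyD88 to TLR2 and TLR4, stood at -0.33. The kinase Irak1 and the ubiquitin ligase Traf6, which act after MyD88, stood at 0.42 and 0.64. Both were dim, with 1500 and 1119 for Irak1 and 2206 and 1412 for Traf6 (deficient and wild-type in turn). Where the lower reading was under 3 times the floor, the pooled SD of repeat sets was 0.47 (94 genes). A floor at the 70th percentile kept 3 of the 6 ratios, all below 0. Traf6 was measured by 1 of its 3 probe sets and the others were below the floor. Under bacterial-control scaling 5 of the 6 were above 0, with a median of 0.21 beside 0.24 for all genes.

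Among the transcription factors and inhibitors at the end of the pathway, 10 of 13 genes on the arrays had a ratio, 4 above 0 and 6 below, 0 past 2-fold (median -0.03). Nfkbia, the inhibitor IκBα and itself induced by NF-κB, had 27058 in deficient cells and 32454 in wild-type cells, a log2 ratio of -0.26, with -0.17 by its second probe set. Irf1 had 8750 in deficient cells and 12324 in wild-type cells (-0.49). The lowest of the 10 was Fos, with 2771 in deficient cells and 4824 in wild-type cells (-0.80). The NF-κB subunit gene Rela, the highest, stood at 0.41 and Relb at -0.04. Bacterial-control scaling put 8 of the 10 above 0, with a median of 0.24, that of all genes.

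The other scavenger receptors went both ways. Of 21 listed genes 12 were on the arrays and 10 had a ratio, 5 above 0 and 5 below, with a median of 0.05. Over the other scalings and floors that median ran from -0.12, for a floor at the 30th percentile, to 0.29, under bacterial-control scaling. Mrc1, the mannose receptor, had 3283 in deficient cells and 16134 in wild-type cells and was the 1 gene of the 10 past 2-fold, at -2.30; of all 3131 genes with a ratio, 3.67% were lower by 2-fold or more. Cd68, a lysosomal glycoprotein of macrophages, had 50831 in deficient cells and 41539 in wild-type cells (0.29). Lrp1, an endocytic receptor of the low-density lipoprotein receptor family, had 37295 in deficient cells and 24584 in wild-type cells (0.60).

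Cd36, the class B scavenger receptor related to SCARB1, read below 0 by both of its probe sets, at -0.32 on B and -0.85 on A. Scarb2, the lysosomal member of that family, stood at -0.12 and -0.14. Stab1 stood at 0.40, the lectin-like receptor Olr1 at -0.47 and Cd5l, a secreted protein of the scavenger receptor cysteine-rich family, at -0.69. The second probe set of Cd5l exceeded the floor only in the wild-type sample and was at least 2.68-fold lower. Under bacterial-control scaling 7 of the 10 were above 0.

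**Figure D4:**
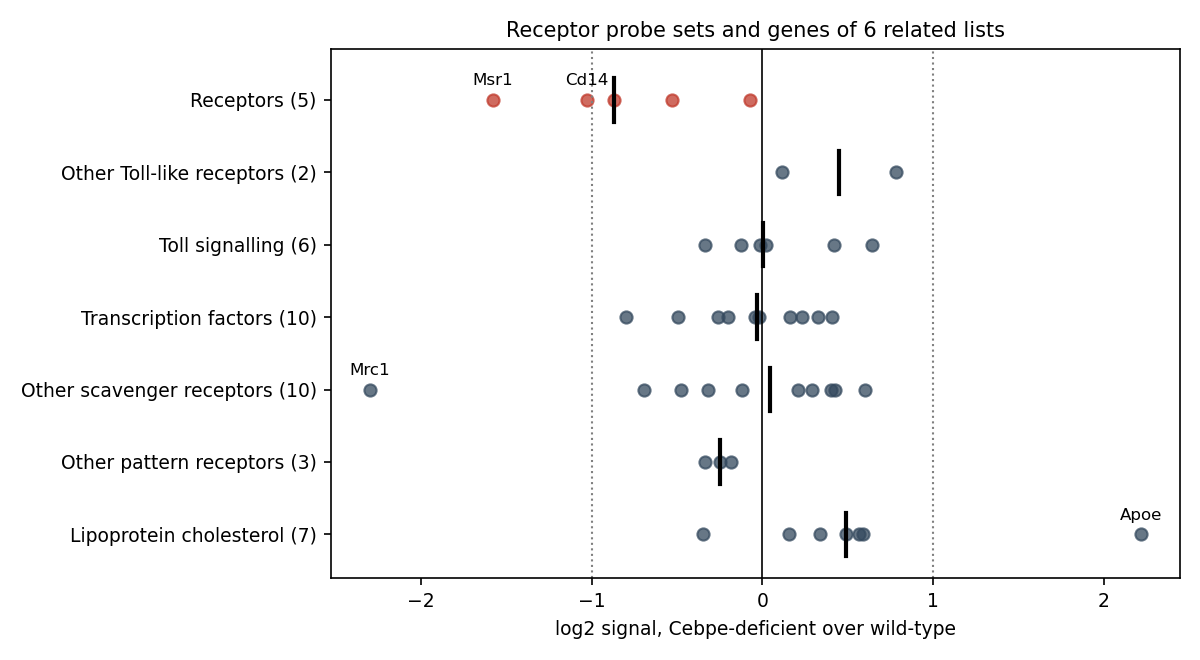
Log2 ratio, deficient over wild-type, of the 5 receptor probe sets with a ratio (red) and of the genes with a ratio in 6 related lists (dark, 1 point per gene, numbers in brackets), with the median of each row as a black bar and 2-fold dotted. The receptor probe sets have a median of -0.87, with Scarb1 left out as a bound. Msr1 counts there by both of its sets, whereas each list gene counts by a single set. The signalling genes, transcription factors and other scavenger receptors lie on both sides of 0, and the lipoprotein genes have a median of 0.49.

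Of 32 other lectins, sensors and secreted pattern recognition molecules, 6 were on the arrays and 3 had a ratio, all below 0 (median -0.25). On that side lay 49.0% of all 3131 genes with a ratio. Lgals3, which encodes galectin 3, had 48048 in deficient cells and 54657 in wild-type cells (-0.19), while a probe set on A exceeded the floor only in deficient cells, with a bound of 1.57-fold higher. Pglyrp1, a peptidoglycan recognition protein of neutrophil granules, had 15860 in deficient cells and 20041 in wild-type cells (-0.34), and the lectin Clec4d stood at -0.25. Quantile normalization put 1 of the 3 above 0 and bacterial-control scaling 2. These differences are close to the error of 0.28.

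Genes of lipoprotein cholesterol exchange, the process in which SCARB1 acts, had 7 ratios from 17 listed genes, 6 of them above 0, with a median of 0.49. Of all 3131 genes with a ratio, 49.0% were below 0 and the median was 0.01. A list of 7 ratios is small, and whether its genes change together was not tested. Apoe was the 1 gene past 2-fold, with 38567 in deficient cells and 8292 in wild-type cells on B (log2 ratio 2.22) and 37932 in deficient cells and 3511 in wild-type cells by its probe set on A (3.43); of all probe sets with a ratio, 3.39% were higher by 2-fold or more. The cholesterol efflux transporters Abca1 and Abcg1 stood at 0.34 and 0.59, and Pltp, which transfers phospholipid between lipoproteins, at 0.49. Npc1, which moves cholesterol out of lysosomes, had 8025 in deficient cells and 7209 in wild-type cells (0.15), and Lcat, at -0.35, was the 1 below 0. Pdzk1, the scaffold that holds SCARB1 in the liver cell membrane, did not reach the floor in either genotype.

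Markers of the cells that carry these receptors were read in the same way. Of the monocyte and macrophage markers other than Cd14, 10 of 13 were on the arrays and all 10 were above the floor in 1 genotype or both. Of 9 ratios 4 were above 0 and 5 below, with a median of -0.43. Their summed signal was 121263 in deficient and 116263 in wild-type cells on A, and 212692 in deficient and 209186 in wild-type cells on B. At the upper end Ccr2, a chemokine receptor of recruited monocytes, stood at 0.97, and at the lower end the complement gene C1qa stood at -0.88.

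Resident peritoneal macrophage markers other than Marco had 5 ratios from 9 listed genes, all below 0, with a median of -0.73, and 1 past 2-fold, Serpinb2 at -1.67. Their summed signal was 22085 in deficient and 35985 in wild-type cells on A, and 17604 in deficient and 33987 in wild-type cells on B. All 5 stayed below 0 under each of the 5 other scalings. Of the neutrophil markers 9 of 12 had a ratio, all below 0, with a median of -0.62, and 4 were lower by 2-fold (Csf3r, Ly6g, Ngp and Il1r2). Nearest to 0 were the bright markers S100a8 at -0.08 (-0.25 by its second probe set), Itgb2 at -0.15 and S100a9 at -0.24. Cxcr2, above the floor in wild-type cells alone, was at least 2.05-fold lower. The summed signal of the neutrophil markers was 105213 in deficient and 136449 in wild-type cells on A, and 98460 in deficient and 129498 in wild-type cells on B. Camp did not reach the floor in either genotype, and quantile normalization, loess and bacterial-control scaling put 2, 1 and 2 of the 9 above 0. For comparison, 49.0% of all genes with a ratio were below 0 and 3.67% were lower by 2-fold or more. Whether the neutrophil markers follow cell number without C/EBPε, a factor of late granulocyte maturation, was not tested. The part of these cell populations in the differences of Cd14, Msr1 and Marco was not tested.

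Markers of cells that were scarcer in the exudate had few values. Of T and NK cell markers 5 of the 7 on the arrays reached the floor in neither genotype, Cd3d, Cd3g, Cd4 and Cd8a among them. B cell markers had 4 ratios with a median of -0.24, dendritic cell markers 2 on opposite sides of 0 (the actin-bundling Fscn1 at -1.18 and the transcription factor Zbtb46 at 0.92), mast cell and basophil markers 2 (-0.35) and eosinophil markers 1, Ccr3 at -1.92. Mesothelial and fibroblast markers had 4 ratios with a median of -1.04, led by Col3a1 at -1.70 and Sparc at -1.51, while Msln, Krt19 and Upk3b, which mark mesothelium, were below the floor in both genotypes. Erythroid markers had 2 ratios, the beta-globin gene Hbb-b2 at -1.62 and the alpha-globin gene Hba-a1 at 0.04 (-0.46 by its dimmer probe set), and Alas2 exceeded the floor only in the wild-type sample. Their part in the receptor differences was not tested either.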

How the data were processed

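The authors deposited 1 array intensity per probe set, a whole number on a linear scale, with 20.6% to 29.3% of the values below 0. How they computed and scaled it is not stated in the labels, and detection calls were not used here. Genotypes came from the sample titles. Whether mice were pooled is not described in the labels used.

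Both arrays of a type were scaled to the same mean of their non-control values, leaving out the top and bottom 2%. The floor was the 50th percentile of both arrays. A probe set above it on both arrays gave a log2 ratio, on 1 array a bound, and otherwise no ratio. A gene was read by its measured probe set with the highest signal over the floor. Names came from the platform annotation (7542 probe sets with 1 symbol, 224 with several, 5303 with none), and all 6 receptor probe sets matched RefSeq gene IDs on GRCm38.p6. The number of arrays limits the precision.

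The receptors and lists were chosen with earlier results of these data known. Named genes were every receptor probe set, list members past 2-fold, the 2 brightest of each related list relative to the floor and the 3 closest probe sets of each receptor ratio. Others are named for their role or as the lowest or highest of a list, picked once their values were known. Other settings tried were unscaled values, equal medians, quantile and loess normalization (span 0.3), bacterial-control scaling, floors at the 30th and 70th percentile, a 3-fold threshold, averaging the probe sets of a gene and leaving out suffixed ones. The procedure was tested on simulated data. Python 3.11.15, numpy 2.4.6, pandas 2.3.3, statsmodels 0.14.6 and matplotlib 3.10.9 were used.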

Additional observations from a re-analysis of the deposited data

How the results depend on the processing

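Of 42 values of the receptor probe sets under other settings, 40 moved by less than the repeat probe set SD of 0.38. The other 2 were the log2 bound of Scarb1, 3.35 for a 30th percentile floor and 0.028 for a 70th. Cd14 stayed at 2-fold or more in 4 of 7 settings: unscaled values, equal medians and the floors at the 30th and 70th percentile. Its range was -1.14 to -0.68, with the -0.68 under bacterial-control scaling. Relative to the median of all type B ratios that value is -1.04, which only undoes the scaling. Msr1 stayed there in 7 of 7 by l04275_s_at and in 0 of 7 by AA183642_at. A floor cannot alter a ratio whose signals stay above it, as those of the receptor ratios did. Unscaled values were nearly the main ones, with scale factors of 0.9998 to 1.0002. The floor and unscaled settings are therefore no check of these ratios. Counts of all probe sets past 2-fold were 75 higher and 93 lower on A and 125 and 110 on B. Bacterial-control scaling gave 154 higher and 55 lower on A and 334 and 55 on B, so that 73.7% and 85.9% of the calls were higher, against 44.6% and 53.2%. Equal medians put 42.1% of the calls on B higher. A 30th percentile floor gave 217 and 266 on A and 445 and 363 on B, with more probe sets measured. A 70th percentile floor gave 35 and 26 on A, 57.4% of them higher, and 41 and 40 on B. A 3-fold threshold gave 12 and 18 on A and 26 and 31 on B. The 40 medians of the 5 related lists with 3 or more ratios moved by less than 0.38 under other settings. The remaining list, other Toll-like receptors and co-receptors, had a median of 0.45 over 2 ratios, and 1.13 over 4 for a 30th percentile floor. Some marker list medians were less stable. With a 30th percentile floor that of the neutrophil markers went from -0.62 to -1.31. That of the mesothelial and fibroblast markers went from -1.04 to -1.60, and the erythroid one from -0.79 to -1.62. The monocyte and macrophage median went from -0.43 to -0.07, and the resident macrophage one stayed at -0.73. Without suffixed probe sets no related list kept 3 ratios, so that setting gave no median. No paired analysis was possible because each genotype had 1 array per type, and leaving out an array left no comparison. Signal over the floor limits Scarb1 to a bound.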
